A study of Homo sapiens with 27 samples.

Results

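The genes described here are 34 genes of sterol and fatty acid synthesis and of cholesterol export, listed by name and picked out by their symbol from the 27115 genes of each library. They fall into 4 groups by role. There are 18 sterol synthesis enzymes, 6 genes of sterol sensing and transport, 7 genes of fatty acid synthesis and lipid assembly and 3 efflux genes that answer to the liver X receptor (LXR). Their RNA was measured by RNA sequencing in 3 human diffuse large B-cell lymphoma (DLBCL) cell lines, Karpas422 (OXPHOS type), OCI-Ly1 (germinal centre B-cell type) and HBL1 (activated B-cell type). Each line had been infected with a lentivirus that carried a control hairpin (shCTRL) or either of 2 hairpins against SIRT3 (shSIRT3-1 and shSIRT3-2), and was collected 8 days later. SIRT3 encodes the main deacetylase of mitochondria. All cells, the controls included, carried the same pLKO.1 vector with puromycin resistance and the yellow fluorescent protein YFP. There were 3 libraries in each of the 9 groups, 27 in all. The study describes knockdown in replicates for each line but does not state that these were separate cultures. The p-values therefore measure the spread between these libraries, which may be technical. Each line is a single established culture and stands for 1 tumour.

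Cholesterol is built from acetyl-CoA by way of mevalonate, squalene and lanosterol, and fatty acids are built from the same acetyl-CoA. Transcription of both pathways is driven by the sterol regulatory element binding proteins, of which the product of SREBF2 favours sterol genes and that of SREBF1 favours fatty acid genes. Both are held in the endoplasmic reticulum by the escort SCAP and the INSIG proteins while membrane sterol is plentiful. Excess sterol acts through LXR, which switches on the exporters ABCA1 and ABCG1, the ubiquitin ligase MYLIP that removes lipoprotein receptors, and SREBF1 itself. Proliferating B cells make and import cholesterol for membranes.

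Promoters of members are shown because sterol and fatty acid genes are controlled there, for 4 members described in detail below and for SREBF2. Promoter windows, 250 bases before to 50 after a start, came from RefSeq on GRCh38.p14 and matched 29 of the 34 genes (all but ACAT2, FDFT1, SQLE, FASN and ABCG1). The following 5 sequences are the 250 bases before the start, written 5′ to 3′ on the gene's strand. Capitals mark the NF-Y box (CCAAT, or ATTGG on the other strand) and, in SREBF2, the sterol regulatory element. The windows are HMGCS1 at chr5:43313413-43313662 (minus strand), MSMO1 at chr4:165327419-165327668 (plus), LSS at chr21:46228775-46229024 (minus), SCD at chr10:100346983-100347232 (plus) and SREBF2 at chr22:41832855-41833104 (plus). HMGCS1 has a further window with no NF-Y box.
HMGCS1: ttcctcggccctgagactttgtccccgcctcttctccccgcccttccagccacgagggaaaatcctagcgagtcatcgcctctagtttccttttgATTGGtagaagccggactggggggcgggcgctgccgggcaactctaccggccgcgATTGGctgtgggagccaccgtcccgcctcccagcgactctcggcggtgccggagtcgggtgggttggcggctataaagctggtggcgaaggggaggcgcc
MSMO1: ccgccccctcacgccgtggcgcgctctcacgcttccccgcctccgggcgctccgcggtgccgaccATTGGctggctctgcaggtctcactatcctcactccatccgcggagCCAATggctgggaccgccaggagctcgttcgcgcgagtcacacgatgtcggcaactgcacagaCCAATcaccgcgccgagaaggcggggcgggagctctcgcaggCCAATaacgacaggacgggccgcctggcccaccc
LSS: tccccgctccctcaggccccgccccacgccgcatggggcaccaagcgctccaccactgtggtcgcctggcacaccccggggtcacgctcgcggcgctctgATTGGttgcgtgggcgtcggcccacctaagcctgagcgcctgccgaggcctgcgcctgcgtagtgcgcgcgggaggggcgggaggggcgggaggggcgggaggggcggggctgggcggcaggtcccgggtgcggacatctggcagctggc
SCD: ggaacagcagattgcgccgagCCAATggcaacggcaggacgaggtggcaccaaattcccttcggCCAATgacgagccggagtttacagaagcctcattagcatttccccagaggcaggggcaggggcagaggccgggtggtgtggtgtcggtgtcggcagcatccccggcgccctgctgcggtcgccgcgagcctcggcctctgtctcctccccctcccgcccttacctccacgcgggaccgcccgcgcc
SREBF2: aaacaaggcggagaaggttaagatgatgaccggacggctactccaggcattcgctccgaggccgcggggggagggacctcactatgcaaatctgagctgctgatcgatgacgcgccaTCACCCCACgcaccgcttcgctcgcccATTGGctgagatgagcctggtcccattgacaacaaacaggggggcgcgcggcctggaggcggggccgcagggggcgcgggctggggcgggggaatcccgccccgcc

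NF-Y is a general activator that works beside the sterol regulatory proteins at many sterol gene promoters. At least 1 NF-Y box stood in a window of 13 of the 15 sterol enzymes with a window (86.7%) and of 21 of all 29 matched members (72.4%), against 10846 of 27305 genes with a window (39.7%). MSMO1 held 4 of them, HMGCS1 and SCD 2 each and LSS 1. The sterol regulatory element, searched as TCACNCCAC on both strands, matched 1 of the 29 members, SREBF2, and 1.39% of all genes. The E-box CACGTG matched 5 of 29 members (17.2%) and 8.78% of all genes. The LXR element of the DR4 type matched none of the 29 and 0.11% of all genes. A match is a string of letters in a short window, and nothing about binding follows from its presence or absence.

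Each library had 28694398 to 53405456 reads on genes (median 45669254). Values are CPM, the read count of a gene scaled to a common library total, and the spread between replicates, not counting error, limited the comparisons. SIRT3 lay at 9.14 to 16.4 CPM in shCTRL libraries, 1.06 to 2.79 with shSIRT3-1 and 2.84 to 6.24 with shSIRT3-2, so the targeted gene bears out the labels in all 27 libraries. Its log2 fold change over the 3 lines was −2.45 (adjusted p = 3.81e-10) and −1.37 (adjusted p = 2.21e-06). The 6 B-cell markers were detected in every group (summed 945 to 2494 CPM), T-cell and myeloid markers summed to at most 2.82 and 1.24 CPM, and a list of 4 epithelial and fibroblast genes to 104 to 423 CPM in Karpas422, where DCN (decorin) made up nearly all of it and EPCAM was at 0, and to at most 7.57 CPM elsewhere. In Karpas422 the B-cell sum was 1633 to 2363 CPM with shCTRL and 945 to 1484 with shSIRT3-2, and that of the list with DCN 401 to 423 CPM with shCTRL and 104 to 292 in the knockdown libraries. In HBL1 the B-cell sum was 1779 to 2194 CPM with shCTRL and 1495 to 1572 with shSIRT3-2. The part of these markers in the results below was not tested. In bulk RNA, fewer cells of a kind and less RNA per cell cannot be told apart. Some libraries were less like their groups. HBL1 shSIRT3-1 replicate 3 correlated least with the other libraries of its group (mean r = 0.958), where replicates 1 and 2 had 0.978 and 0.975. Karpas422 shSIRT3-2 replicate 3 and HBL1 shCTRL replicate 3 each had a mean r of 0.986, the lowest of their groups. The OCI-Ly1 shCTRL libraries were about as low (0.986 to 0.987), and replicate 2 among them was below its group mean for all 18 sterol enzymes. Results that rest on them are given with and without them.

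Of the sterol synthesis enzymes, HMGCS1 and MSMO1 were called higher with each SIRT3 hairpin. Taken line by line, enzymes were called in HBL1 and Karpas422, while none was called in OCI-Ly1. A gene was called when it changed by more than 1.5-fold at an adjusted p below 0.05 in limma, a linear model fitted to all 13076 tested genes with cell line as a covariate. In that fit 5 of the 18 enzymes were called higher with shSIRT3-1 and 3 of 18 with shSIRT3-2, none lower. Among all genes tested, 3.92% were called higher and 9.09% lower with shSIRT3-1, and 3.29% higher and 10.2% lower with shSIRT3-2. At an adjusted p below 0.05 and any fold, 10 of 18 enzymes were higher and none lower with shSIRT3-1 (all genes, 15.6% higher and 22.3% lower), and 9 were higher and 1 lower with shSIRT3-2 (all genes, 16.3% higher and 21.7% lower). The median log2 fold change of the 18 was 0.44 and 0.39, beside −0.05 and −0.03 over all genes. Of the 34 members together, 6 were called with shSIRT3-1 and 5 with shSIRT3-2, where 13% and 13.5% of all genes were called in either direction. Leaving out replicate 1, 2 or 3 of every group gave 6, 4 and 11 calls with shSIRT3-1 and 4, 0 and 9 with shSIRT3-2. Over all genes the same fits gave 1501, 1211 and 1491 calls with shSIRT3-1, against 1701 with all libraries. With shSIRT3-2 they gave 1589, 985 and 1687, against 1760. Of all calls, 69.9% and 75.6% were lower, and with quantile normalization 54.7% and 59.4%.

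**Figure D1:**
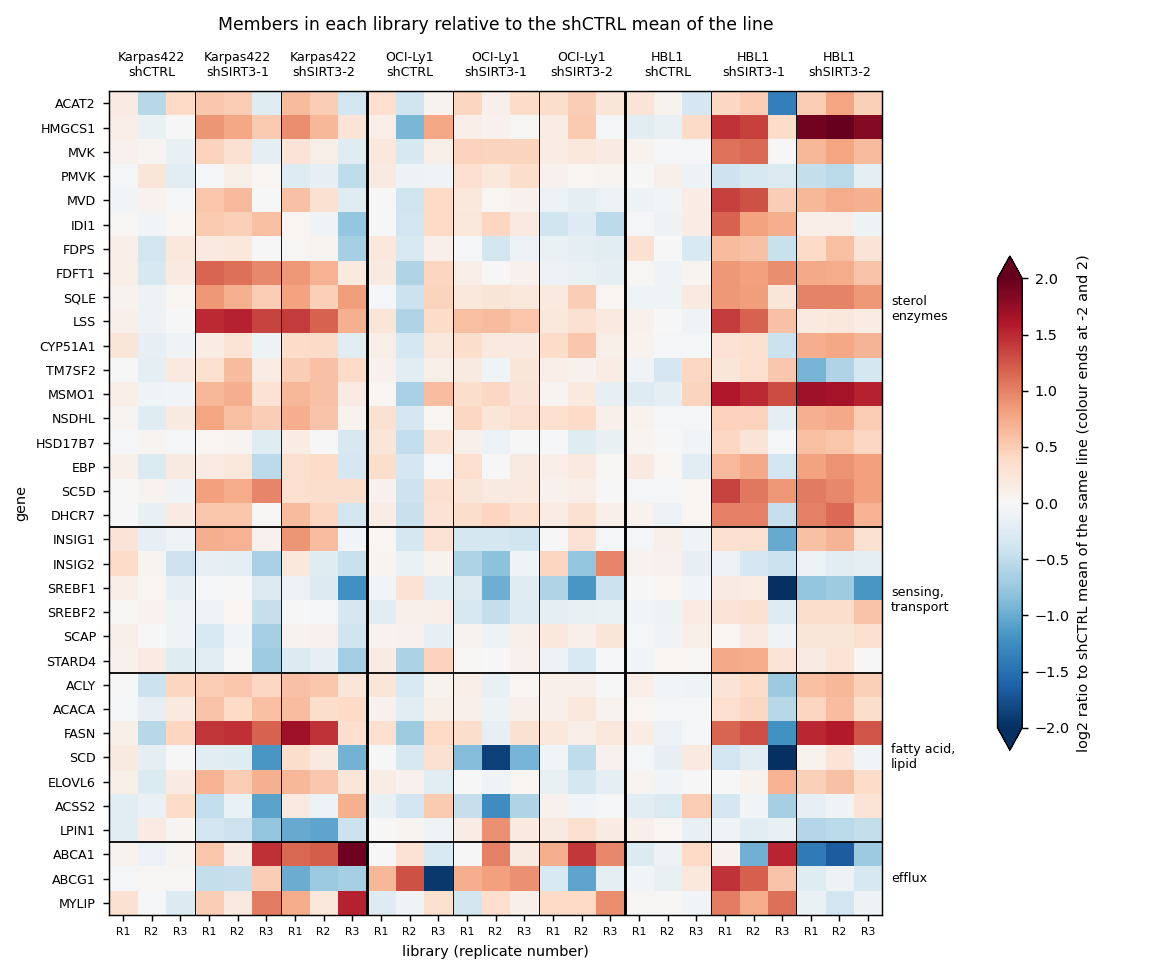
Heatmap of the 34 members (rows, grouped by role) in the 27 libraries (columns, grouped by line and hairpin); colour is the log2 ratio to the mean of the same line's shCTRL libraries, with the scale ending at 2 in either direction. Sterol enzymes are above control in most knockdown libraries of Karpas422 and HBL1, and HBL1 shSIRT3-1 replicate 3 can be seen as a column unlike its group.

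HMGCS1 (hg19 chr5:43287572-43313614, minus strand), which makes the HMG-CoA that feeds mevalonate, was called higher with both hairpins. In Karpas422 it lay at 219, 183 and 199.5 CPM with shCTRL, 369, 342 and 286 with shSIRT3-1, and 380.3, 316 and 239 with shSIRT3-2. In HBL1 it lay at 59.9, 63.4 and 91.3 CPM with shCTRL, 192, 182 and 90.2 with shSIRT3-1, and 269, 279.6 and 250.3 with shSIRT3-2. In OCI-Ly1 it lay at 166, 80.8 and 259 CPM with shCTRL, 167, 161 and 154 with shSIRT3-1, and 167, 218 and 148 with shSIRT3-2. All knockdown libraries of Karpas422 and the shSIRT3-2 libraries of HBL1 were above their controls, 1 shSIRT3-1 library of HBL1 fell among the controls, and the OCI-Ly1 controls spanned every knockdown value. Over the 3 lines HMGCS1 rose by 0.62 ± 0.22 (SE, log2) with shSIRT3-1 (adjusted p = 0.0272) and by 0.92 ± 0.22 with shSIRT3-2 (adjusted p = 0.00199), 1.54-fold and 1.89-fold. The shSIRT3-1 call was lost without OCI-Ly1 shCTRL replicate 2 (0.56, adjusted p = 0.0564), with edgeR on the reads (0.56, adjusted p = 0.0654) and without replicate 1 or replicate 2 of every group (0.53 and 0.36). The shSIRT3-2 call was lost without replicate 2 of every group as well (0.65, adjusted p = 0.133).

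MSMO1 (chr4:166248819-166264316, plus strand), the sterol C4-methyl oxidase that acts after lanosterol, was the other member called with both hairpins. The Karpas422 libraries were at 95.1, 82.1 and 83.8 CPM with shCTRL, 138, 144 and 107 with shSIRT3-1, and 137, 131 and 97.0 with shSIRT3-2. The HBL1 libraries were at 18.3, 19.3 and 30.0 CPM with shCTRL, 67.1, 61.9 and 54.5 with shSIRT3-1, and 71.0, 70.1 and 64.2 with shSIRT3-2. The OCI-Ly1 libraries were at 79.6, 49.3 and 118 CPM with shCTRL, 98.6, 103 and 92.6 with shSIRT3-1, and 80.4, 88.2 and 69.2 with shSIRT3-2. Every knockdown library of Karpas422 and HBL1 was above its controls, and in OCI-Ly1 the groups overlapped. Over the 3 lines MSMO1 rose by 0.79 ± 0.18 (adjusted p = 0.00128) and 0.71 ± 0.18 (adjusted p = 0.00334). Both calls were lost without replicate 2 of every group (0.59, adjusted p = 0.0869, and 0.50, adjusted p = 0.156). Of all genes tested, 1.1% were called higher with both hairpins, against HMGCS1 and MSMO1 among the 34 members.

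LSS (chr21:47608055-47648738, minus strand), which closes squalene epoxide into lanosterol, had the largest change of any member with shSIRT3-1. In Karpas422 it lay at 44.1, 38.5 and 41.0 CPM with shCTRL, 116, 119.6 and 105 with shSIRT3-1, and 108, 93.6 and 67.5 with shSIRT3-2. Values in HBL1 were 223, 209.5 and 200.6 CPM with shCTRL, 558, 477 and 316 with shSIRT3-1, and 243, 248 and 233 with shSIRT3-2. Values in OCI-Ly1 were 131, 72.6 and 142 CPM with shCTRL, 168, 172 and 162 with shSIRT3-1, and 129, 136 and 127 with shSIRT3-2. All shSIRT3-1 libraries of the 3 lines were above their controls, while with shSIRT3-2 the HBL1 libraries were only just above and those of OCI-Ly1 overlapped. The log2 fold change over the 3 lines was 1.04 ± 0.14 with shSIRT3-1 (2.05-fold, adjusted p = 5.19e-06) and 0.51 ± 0.14 with shSIRT3-2 (1.42-fold, adjusted p = 0.00686, under the fold threshold). LSS was above its control mean in 18 of 18 knockdown libraries.

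**Figure D2:**
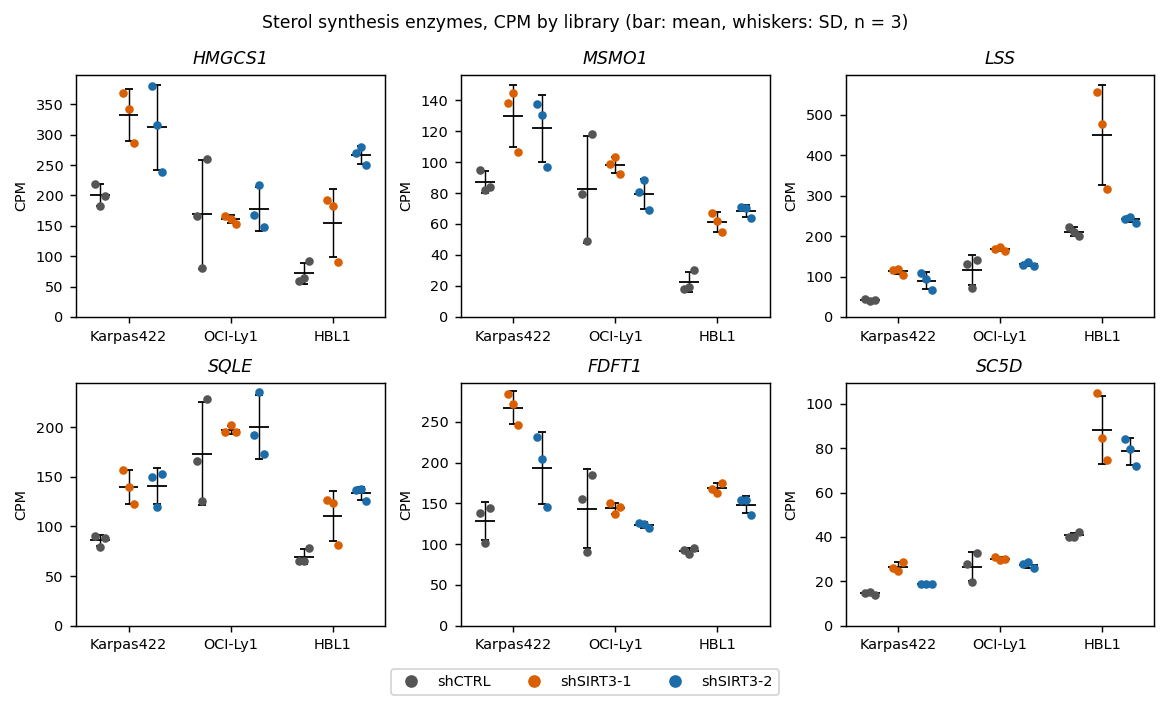
CPM of HMGCS1, MSMO1, LSS, SQLE, FDFT1 and SC5D in each library, by line and hairpin; points are libraries, bars the group mean and whiskers the SD (n = 3). The HBL1 and Karpas422 knockdown points mostly stand above their controls, and in OCI-Ly1 the wide shCTRL spread covers most knockdown points.

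Other enzymes of the pathway followed in part. The 2 further calls with shSIRT3-1 were FDFT1, squalene synthase (0.67 ± 0.14, adjusted p = 0.000432), and SC5D, the late sterol desaturase (0.72 ± 0.11, adjusted p = 2.82e-05), and the further call with shSIRT3-2 was SQLE, squalene epoxidase (0.63 ± 0.11, adjusted p = 0.000146). With the other hairpin these 3 passed the adjusted p but not the fold, at 0.38, 0.45 and 0.52. FDFT1, SQLE and SC5D were above all controls in every knockdown library of Karpas422 and HBL1 and overlapped with them in OCI-Ly1. The share of all genes whose knockdown libraries stand apart from their controls was not counted. Statements of that kind, here and for other genes, are therefore descriptions only. Their values by library are in the plot of sterol enzymes and were chosen for it after they had been seen. Without replicate 2 of every group the FDFT1 and SQLE calls went under the fold threshold (0.52 and 0.52).

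The remaining 12 enzymes were called with neither hairpin over the 3 lines. With shSIRT3-1, 4 of them passed the adjusted p as higher. These were IDI1, which isomerises isopentenyl diphosphate (0.57, adjusted p = 0.000239), the kinase MVK (0.46), the decarboxylase MVD (0.52) and the C4-decarboxylating dehydrogenase NSDHL (0.40). The last reductase of the pathway, DHCR7, missed it (0.42, adjusted p = 0.055). With shSIRT3-2, NSDHL (0.46), the lanosterol demethylase CYP51A1 (0.42) and DHCR7 (0.46) passed the adjusted p as higher, and the kinase PMVK passed it as lower (−0.22, adjusted p = 0.0426). The thiolase ACAT2, the farnesyl diphosphate synthase FDPS, the C14 reductase TM7SF2, the ketosteroid reductase HSD17B7 and the isomerase EBP lay between −0.01 and 0.40 with both hairpins and passed neither test. ACAT2 overlaps the gene TCP1 on the opposite strand, and FDPS and HSD17B7 have close pseudogene copies, so their counts are less certain.

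**Figure D3:**
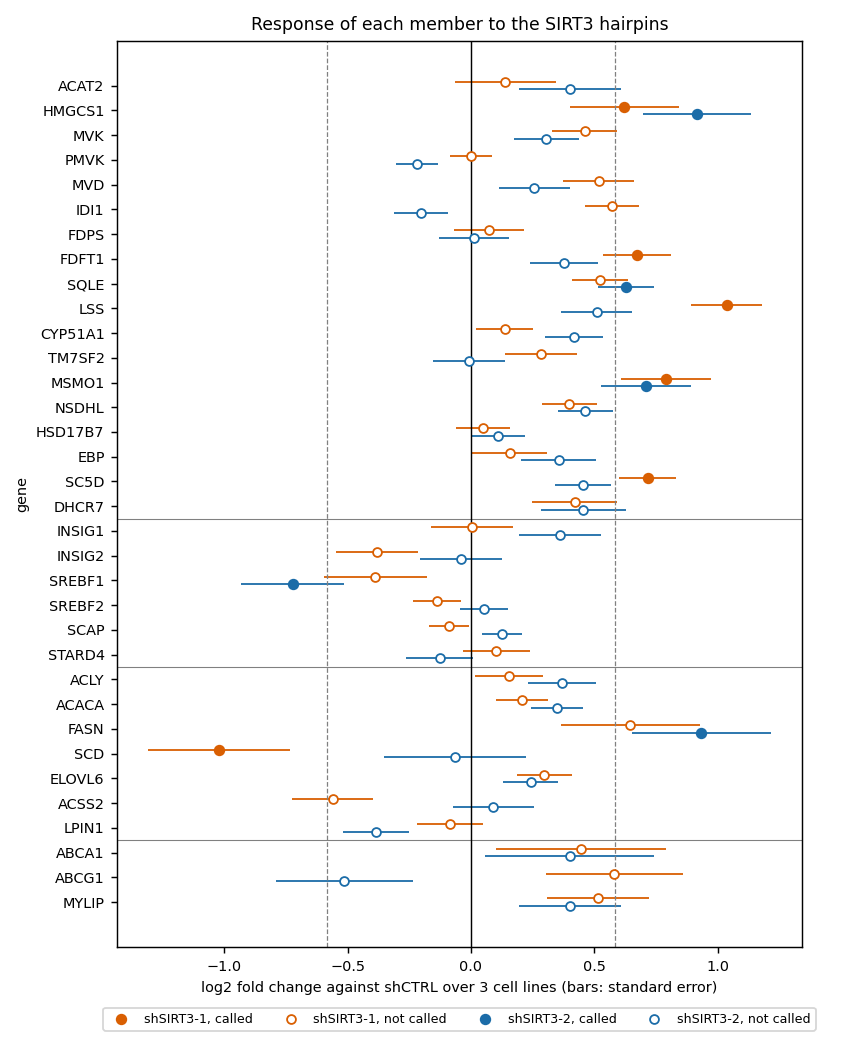
Log2 fold change over the 3 lines (x axis, with the SE as a bar) of each member (y axis, by role) for shSIRT3-1 and shSIRT3-2 against shCTRL; filled points are called and dashed lines mark 1.5-fold. Sterol enzymes lie mostly right of 0 with both hairpins, SCD lies left with shSIRT3-1 and near 0 with shSIRT3-2, and SREBF1 lies left with both.

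Of the 6 genes of sterol sensing and transport none was called with shSIRT3-1 and 1, SREBF1, was called lower with shSIRT3-2, and the median log2 fold change of the 6 was −0.11 and 0.01. SREBF2 (−0.14 and 0.05) and SCAP (−0.09 and 0.12) passed no test in either comparison, and nor did INSIG1 (0.36 with shSIRT3-2), INSIG2 (−0.38 and −0.04) or STARD4, a cytosolic sterol carrier (0.10 and −0.13). INSIG2 was below its control mean in all but 3 of 18 knockdown libraries. In HBL1 with shSIRT3-2, SREBF2 (275 to 320 CPM against 200.6 to 240.8 with shCTRL), SCAP (53.1 to 56.4 against 42.6 to 48.6) and INSIG1 (137 to 179 against 105 to 119) were above every control, and none of them passed the test in that line (log2 differences of 0.43, 0.27 and 0.52, adjusted p = 0.0669, 0.0573 and 0.23). That fit did not pair libraries by replicate number. STARD4 was called higher in HBL1 with shSIRT3-1.

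SREBF1 (chr17:17713713-17740316, minus strand) lay in Karpas422 at 75.0, 70.4 and 61.0 CPM with shCTRL, 67.5, 68.9 and 56.0 with shSIRT3-1, and 63.3, 56.0 and 29.4 with shSIRT3-2. In OCI-Ly1 it lay at 111, 141 and 99.1 CPM with shCTRL, 94.9, 58.6 and 98.1 with shSIRT3-1, and 76.6, 51.4 and 85.9 with shSIRT3-2. In HBL1 it lay at 114, 116 and 109.7 CPM with shCTRL, 127, 126 and 28.5 with shSIRT3-1, and 65.3, 68.9 and 50.5 with shSIRT3-2. Both knockdown groups of OCI-Ly1 and the shSIRT3-2 group of HBL1 were below their controls, and all 9 shSIRT3-2 libraries were below the mean of their controls. SREBF1 passed the adjusted p in no line fitted alone, with either hairpin, and the tests that follow are over the 3 lines. SREBF1 fell by 0.72 ± 0.21 on the log2 scale with shSIRT3-2 (adjusted p = 0.00824), a call that was lost without replicate 2 of every group (−0.66, adjusted p = 0.104). With shSIRT3-1 the difference was −0.39 ± 0.21 (adjusted p = 0.145), and it was −0.18 without HBL1 shSIRT3-1 replicate 3, the library at 28.5 CPM. The 2 hairpins did not pass a test against each other for SREBF1 (−0.33, adjusted p = 0.223).

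Among the fatty acid genes, FASN, the fatty acid synthase itself, was called higher with shSIRT3-2, SCD, the desaturase that makes oleate and palmitoleate, was called lower with shSIRT3-1, and the other 5 stayed under the fold threshold over the 3 lines. The median log2 fold change of the 7 was 0.15 with shSIRT3-1 and 0.24 with shSIRT3-2. At an adjusted p below 0.05 and any fold, 1 was higher and 2 lower with shSIRT3-1, and 3 were higher and 1 lower with shSIRT3-2. The shares over all genes were 15.6% and 22.3%, and 16.3% and 21.7%, and the lower counts among 7 genes are close to them.

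FASN (chr17:80036214-80056170, minus strand) lay in Karpas422 at 253, 160.3 and 317 CPM with shCTRL, 634, 643 and 534 with shSIRT3-1, and 761, 637 and 297 with shSIRT3-2. The HBL1 libraries were at 169, 140.1 and 149.9 CPM with shCTRL, 344, 374 and 65.7 with shSIRT3-1, and 435, 457 and 364 with shSIRT3-2. The OCI-Ly1 libraries were at 213, 105 and 226 CPM with shCTRL, 219, 153 and 211 with shSIRT3-1, and 199.5, 188 and 201.5 with shSIRT3-2. The third replicates of Karpas422 shSIRT3-2 and HBL1 shSIRT3-1 were far below the other libraries of their groups, and OCI-Ly1 groups overlapped. FASN rose by 0.93 ± 0.28 with shSIRT3-2 (1.91-fold, adjusted p = 0.0109), which was not called without replicate 1 (0.93, adjusted p = 0.0892) or replicate 2 (0.64, adjusted p = 0.233) of every group. With shSIRT3-1 the difference was 0.65 ± 0.28 (adjusted p = 0.0717), and it was called without HBL1 shSIRT3-1 replicate 3 (0.91, adjusted p = 0.00114) and with edgeR on the reads (0.73, adjusted p = 0.0365).

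SCD (chr10:102106990-102124583, plus strand) lay in Karpas422 at 536, 417 and 479 CPM with shCTRL, 407, 403 and 212 with shSIRT3-1, and 606, 539 and 247 with shSIRT3-2. Values in OCI-Ly1 were 436, 346 and 534 CPM with shCTRL, 236, 118 and 226 with shSIRT3-1, and 416, 305 and 457 with shSIRT3-2. Values in HBL1 were 565, 516 and 659 CPM with shCTRL, 442, 493 and 59.8 with shSIRT3-1, and 608, 699.99 and 554 with shSIRT3-2. All 9 shSIRT3-1 libraries were below the controls of their line, and the shSIRT3-2 groups overlapped with the controls in each line. SCD fell by 1.02 ± 0.29 on the log2 scale with shSIRT3-1 (adjusted p = 0.00683), and by 0.72 without HBL1 shSIRT3-1 replicate 3 (adjusted p = 0.0034). With shSIRT3-2 the difference was −0.07 ± 0.29 (adjusted p = 0.879). The hairpins differed from each other by 0.95 ± 0.29 (adjusted p = 0.0133). Without the third replicate of every group the shSIRT3-1 difference was −0.55 and under the fold threshold.

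Of the other fatty acid genes, ACLY, which cleaves citrate to acetyl-CoA (0.37, adjusted p = 0.0343), and the carboxylase ACACA (0.35, adjusted p = 0.0118) passed the adjusted p with shSIRT3-2, and the elongase ELOVL6 did with shSIRT3-1 (0.30, adjusted p = 0.0379). ACSS2, which makes acetyl-CoA from acetate, passed it as lower with shSIRT3-1 (−0.56, adjusted p = 0.00903), and the phosphatidate phosphatase LPIN1 as lower with shSIRT3-2 (−0.38, adjusted p = 0.0256). In Karpas422 ACSS2 was at only 0.497 to 0.798 CPM with shCTRL and 0.233 to 0.538 with shSIRT3-1. That line was too low to be tested alone and still enters the value over the 3 lines. FASN and ACACA were above the control mean in 16 of 18 knockdown libraries, ACSS2 in none of the 9 shSIRT3-1 libraries.

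**Figure D4:**
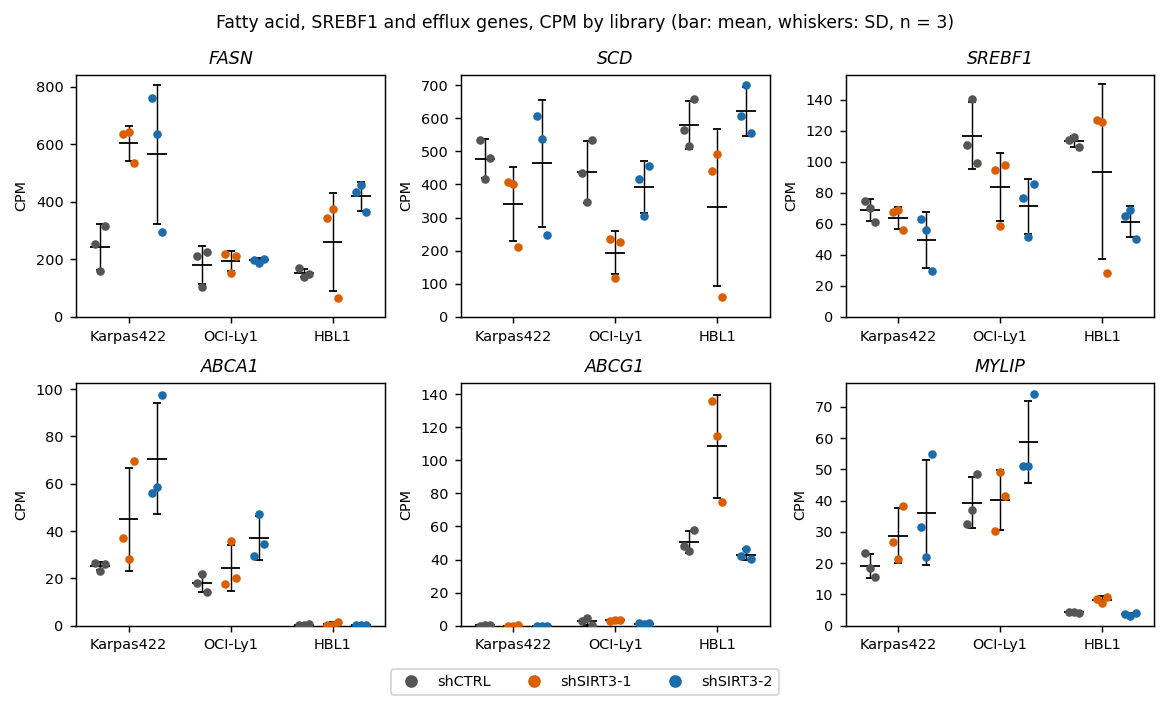
CPM of FASN, SCD, SREBF1, ABCA1, ABCG1 and MYLIP in each library, by line and hairpin; points are libraries, bars the group mean and whiskers the SD (n = 3). SCD is below control with shSIRT3-1 in each line, ABCG1 is at a measurable level mainly in HBL1 and ABCA1 mainly in Karpas422 and OCI-Ly1.

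None of the 3 LXR-type efflux genes was called over the 3 lines, and their levels differed widely between lines. ABCG1 (chr21:43619799-43717354, plus strand), a cholesterol exporter, was near 0 in Karpas422, at 0.0938, 0.101 and 0.102 CPM with shCTRL, 0.0429, 0.0448 and 0.180 with shSIRT3-1, and 0, 0.0186 and 0.0254 with shSIRT3-2. In OCI-Ly1 it lay at 2.86, 4.38 and 0.388 CPM with shCTRL, 2.98, 3.18 and 3.43 with shSIRT3-1, and 1.42, 0.794 and 1.54 with shSIRT3-2. In HBL1 it lay at 48.0, 45.2 and 57.9 CPM with shCTRL, 136, 115 and 74.7 with shSIRT3-1, and 42.2, 46.6 and 40.2 with shSIRT3-2. The HBL1 libraries with shSIRT3-1 were all above their controls, and those with shSIRT3-2 overlapped with them. Over the 3 lines the log2 fold change of ABCG1 was 0.58 ± 0.28 (adjusted p = 0.102) and −0.51 ± 0.28 (adjusted p = 0.15), and without OCI-Ly1 shCTRL replicate 2 the first was called (0.74, adjusted p = 0.0309). The hairpins differed from each other by −1.09 ± 0.28 (adjusted p = 0.00416).

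ABCA1, which loads cholesterol onto apolipoproteins, lay at 23.3 to 26.4 CPM in Karpas422 shCTRL libraries, 28.2 to 69.5 with shSIRT3-1 and 55.9 to 97.6 with shSIRT3-2. The OCI-Ly1 libraries were at 14.3 to 21.8, 17.8 to 35.7 and 29.3 to 47.3 CPM, and in HBL1 at 0.355 to 0.624, 0.183 to 1.49 and 0.0748 to 0.235 CPM. In Karpas422 both knockdown groups, and in OCI-Ly1 the shSIRT3-2 group, were above their controls, while in HBL1 the shSIRT3-2 group was below. Over the 3 lines its log2 fold change was 0.45 ± 0.34 (adjusted p = 0.319) and 0.40 ± 0.34 (adjusted p = 0.377). MYLIP was 0.52 (adjusted p = 0.0503) and 0.40 (adjusted p = 0.128). With quantile normalization MYLIP was called higher with shSIRT3-1 (0.69, adjusted p = 0.0128), and it was with edgeR as well (0.60, adjusted p = 0.0312).

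The hairpins were also set against each other. In the direct comparison of shSIRT3-2 with shSIRT3-1, 2 members were called lower, IDI1 (−0.77 ± 0.11, adjusted p = 9.71e-06) and ABCG1, and 2 higher, SCD and ACSS2 (0.65 ± 0.16, adjusted p = 0.0039). Among all genes 6.05% were called lower and 5.27% higher, and the share of members called is close to that background. Of all calls 53.4% were lower, and 41.9% with a pseudocount of 1. IDI1 was above its control mean in 9 of 9 shSIRT3-1 libraries and 3 of 9 shSIRT3-2 libraries. LSS was −0.53 between hairpins (adjusted p = 0.00658), under the fold threshold. The ACSS2 call was lost without Karpas422 shSIRT3-2 replicate 3 (0.57, under the fold threshold). Both hairpins were set against the same shCTRL libraries.

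**Figure D5:**
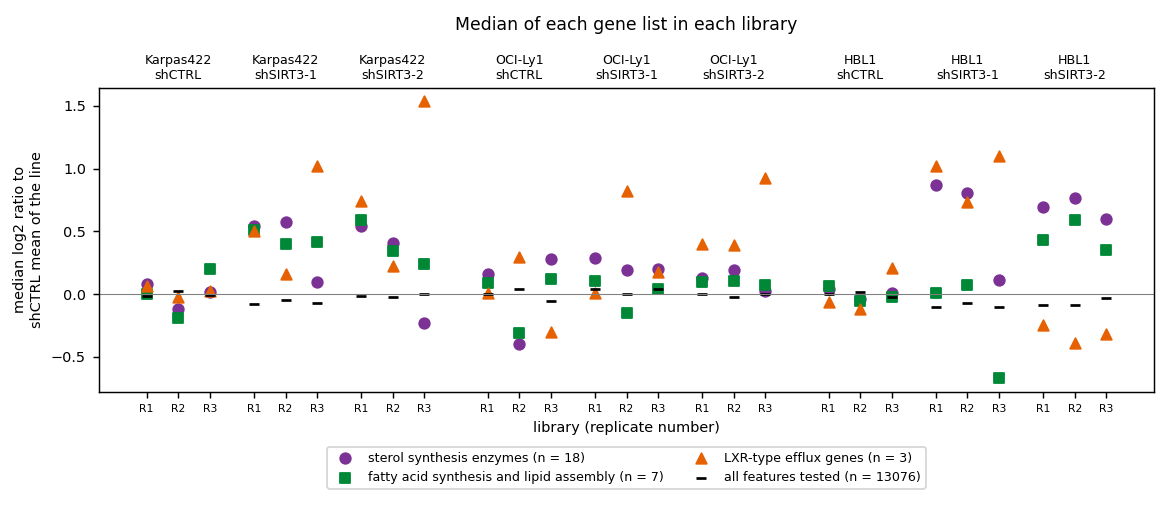
Median log2 ratio to the same line's shCTRL mean in each library (points) for the sterol enzymes (n = 18), the fatty acid genes (n = 7), the efflux genes (n = 3) and all tested genes (n = 13076). The median of all tested genes stays within 0.101 of 0 in every library, and the sterol median is 0.0928 to 0.872 in the shSIRT3-1 libraries and −0.227 to 0.769 in the shSIRT3-2 libraries of Karpas422 and HBL1.

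Fitted alone, HBL1 had the most calls, for members and for all genes. With shSIRT3-1 11 of the 33 tested members were called, all higher, against 8.83% higher and 18.8% lower of all genes tested in that line. With shSIRT3-2 9 were called higher and 1 lower, against 7.51% higher and 16% lower. ABCA1 was not tested there for its low level. The sterol median was 0.58 and 0.69, with −0.11 and −0.06 over all genes. The median of all genes moved from −0.11 to 0.04 with quantile normalization for shSIRT3-1, and from −0.06 to 0.06 with median-ratio scaling for shSIRT3-2. The share of lower calls among all genes went from 68% to 49.6% and 50.8% with quantile normalization, while member calls were 12 and 11. Called with both hairpins were HMGCS1 (1.06 and 1.92), MVD (1.05 and 0.70), FDFT1 (0.87 and 0.69), SQLE (0.65 and 0.95), MSMO1 (1.47 and 1.63) and SC5D (1.09 and 0.94), 6 members against 2.47% of all genes. With shSIRT3-1 alone IDI1 (0.90), LSS (1.05), STARD4 (0.59), ABCG1 (1.07) and MYLIP (0.95) were called higher. With shSIRT3-2 alone CYP51A1 (0.73), NSDHL (0.66) and EBP (0.84) were called higher and TM7SF2 lower (−0.63). LSS rose with shSIRT3-1 (adjusted p = 0.00268) and was 0.19 with shSIRT3-2 (adjusted p = 0.447). Without HBL1 shSIRT3-1 replicate 3, 16 members were called with shSIRT3-1, MVK, FDPS, EBP, DHCR7 and FASN (1.23, adjusted p = 0.000146) being added. Without HBL1 shCTRL replicate 3, 11 were called with shSIRT3-1 and 7 with shSIRT3-2, the calls of MVD, NSDHL, EBP and TM7SF2 being lost and LPIN1 called lower (−0.61, adjusted p = 0.00304).

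In Karpas422 32 of the 34 members were tested, ACSS2 and ABCG1 being too low. With shSIRT3-1 8 were called, all higher, against 4.45% higher and 11.5% lower of all genes in that line. With shSIRT3-2 6 were called higher and 1 lower, against 5.55% higher and 9.44% lower. Called with both hairpins were HMGCS1 (0.73 and 0.62), FDFT1 (1.08 and 0.59), SQLE (0.69 and 0.70), LSS (1.46 and 1.10) and FASN (1.36 and 1.16), 5 members against 1.85% of all genes. NSDHL (0.63), SC5D (0.85) and ELOVL6 (0.64) were called with shSIRT3-1 only, and ABCA1 (1.43, adjusted p = 0.007) and LPIN1 (−0.83) with shSIRT3-2 only. MSMO1 passed the adjusted p with both and missed the fold threshold (0.56 and 0.47). The sterol median was 0.39 and 0.24, beside −0.08 and −0.00 over all genes. Of all calls with shSIRT3-1 72.1% were lower, and 53.6% with quantile normalization. Without Karpas422 shSIRT3-2 replicate 3, the call count with shSIRT3-2 went from 7 to 11, with MSMO1 (0.63), NSDHL (0.65), INSIG1 (0.76) and ELOVL6 (0.61) added.

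In OCI-Ly1 all 34 members were tested and 1 was called with each hairpin, a different one. SCD fell with shSIRT3-1 (by 1.22, adjusted p = 0.0311) and ABCA1 rose with shSIRT3-2 (1.03, adjusted p = 0.0439), and none was called with both. All genes gave 2.45% lower and 2.04% higher with shSIRT3-1, 4.26% lower and 2.15% higher with shSIRT3-2, and 0.571% higher with both, and calls over all genes were also fewest in that line. No sterol enzyme was called, and the sterol median was 0.24 and 0.12. The largest sterol difference was that of LSS with shSIRT3-1 (0.60 ± 0.21, adjusted p = 0.107). Without OCI-Ly1 shCTRL replicate 2 both calls were lost, at −1.38 (adjusted p = 0.0544) for SCD and 1.18 (adjusted p = 0.0626) for ABCA1. HMGCS1 was 0.08 and 0.21 with all libraries.

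Whether a member's response differed between lines was tested by the F test on the interaction of line and hairpin. It passed for 11 of 34 members, 7 of 18 sterol enzymes, 2 of 7 fatty acid genes, 2 of 3 efflux genes and none of 6 sensing genes. Of all genes 41.8% passed, against 11 of 34 members, so a difference between lines is not particular to these genes. The smallest values were those of SC5D (adjusted p = 0.00233), TM7SF2 (0.00249), MSMO1 (0.00409), MYLIP (0.00707) and ABCA1 (0.00748). SC5D was 1.09 and 0.94 in HBL1, 0.85 and 0.35 in Karpas422 and 0.21 and 0.07 in OCI-Ly1. MYLIP in HBL1 was 0.95 with shSIRT3-1 and −0.21 with shSIRT3-2, while in OCI-Ly1 it was 0.03 and 0.57.

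The lines differed in these genes before knockdown. Per kilobase of exon, SCD was the highest member in shCTRL cells of each line, with HBL1 at 110.6 ± 13.9 CPM per kb (SD, n = 3), Karpas422 at 91.0 ± 11.3 and OCI-Ly1 at 83.6 ± 17.9. The length used was that of all annotated exons of a gene merged, not of the transcript in use. The order of members within a line thus depends in part on the annotation. ACLY followed in Karpas422 (59.0 ± 17.6) and HBL1 (41.0 ± 3.52), and SREBF2 (57.6 ± 7.75) and ACLY (55.9 ± 10.5) were next and close to each other in OCI-Ly1. HBL1 against Karpas422, 11 members were called lower and 7 higher, where 28.8% and 25.8% of all genes were. HBL1 against OCI-Ly1, 16 were lower and 4 higher, where 25% and 29.6% of all genes were. Karpas422 against OCI-Ly1, 14 were lower and 2 higher, where 22.6% and 28.2% of all genes were. Without HBL1 shCTRL replicate 3, HBL1 against Karpas422 gave 8 lower and 7 higher (6211 of 11853 genes called either way). HBL1 against OCI-Ly1 then stayed at 16 and 4 (6203 genes). Without OCI-Ly1 shCTRL replicate 2, HBL1 against OCI-Ly1 gave 20 lower and 3 higher (6694 of 12326 genes). Karpas422 against OCI-Ly1 then gave 14 and 3 (6218 genes). 

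In HBL1, HMGCS1 (−1.51 against Karpas422 and −1.11 against OCI-Ly1) and MSMO1 (−1.98 and −1.81) started lowest, while LSS (2.35 and 0.93) and SC5D (1.47 and 0.64) started highest. After knockdown HMGCS1 in HBL1 stood at 154.8 ± 56.2 CPM with shSIRT3-1 and 266 ± 14.8 with shSIRT3-2, next to 168.8 ± 89.3 in OCI-Ly1 controls and 200.4 ± 18.3 in Karpas422 controls. MSMO1 in HBL1 went from 22.5 ± 6.49 CPM to 61.2 ± 6.29 and 68.4 ± 3.72, with Karpas422 controls at 87.0 ± 7.08. The efflux genes were split by line, with ABCG1 higher (7.98 and 4.75, sizes that depend on the pseudocount where a line is near 0) and ABCA1 (−5.52 and −5.01) and MYLIP (−2.13 and −3.17) lower in HBL1 than in Karpas422 and OCI-Ly1. Among the control libraries ABCG1 passed the filter on low values only through those of HBL1. A higher value there was thus built in, and the difference is given as a description. SCAP was higher in Karpas422 than in OCI-Ly1 (1.55) and HBL1, and ACSS2 was highest in HBL1 (3.96 against Karpas422, where it is low, so the size depends on the pseudocount).

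Genes next to these pathways were counted in the same fit. Over the 3 lines, of the 10 genes of SREBP processing and turnover 1 was called lower and 1 higher with shSIRT3-1 and 1 lower with shSIRT3-2, with medians of 0.03 and 0.02. Over all genes, 9.09% were called lower and 3.92% higher with shSIRT3-1, and 10.2% and 3.29% with shSIRT3-2, so counts of 1 to 3 in lists this short are near the background. Of the 10 of sterol storage and traffic 2 were called lower with shSIRT3-1 and 1 higher with shSIRT3-2, the lysosomal cholesterol carrier NPC2 (0.92 ± 0.11, adjusted p = 1.38e-06, and 0.49 with shSIRT3-1). Of the 7 tested genes of isoprenoid branches 1 was called lower and 1 higher with shSIRT3-1 and 1 lower with shSIRT3-2. Of the 16 tested of fatty acid elongation, desaturation and activation 3 were called lower with shSIRT3-1 and 1 higher with shSIRT3-2. None of the 7 of glycerolipid assembly was called with either hairpin. Of the 6 tested LXR partners and targets only RXRA was called, lower with each hairpin. That call was built into the filter, as described below, and is not counted as a result.

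GGPS1, which makes the geranylgeranyl diphosphate used to anchor small GTPases and so draws on the same mevalonate, was called lower with both hairpins and fell by 0.66 ± 0.09 (adjusted p = 3.68e-06) and 0.68 ± 0.09 (adjusted p = 2.71e-06). It lay at 19.9 to 26.4 CPM in Karpas422 shCTRL libraries and 10.5 to 12.6 in the 6 knockdown libraries, at 20.9 to 24.3 and 16.1 to 17.8 in OCI-Ly1, and at 17.0 to 17.6 and 10.5 to 14.4 in HBL1. In each line every knockdown library was below every control. Of all genes tested, 3.98% were called lower with both hairpins, so such a call is not particular to GGPS1. RXRA, the partner of LXR, was also listed as lower with both, but it passed the filter on low values only through the 3 HBL1 shCTRL libraries, so a lower call was built into the filter and is not counted as a result. In HBL1 it lay at 2.40 to 3.86 CPM with shCTRL and 0.189 to 0.460 in knockdown libraries, and at most 0.065 CPM elsewhere.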

How the data were processed

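RNA sequencing of 27 libraries (9 groups of 3) from human DLBCL lines was used. Per the labels and the study's methods, total RNA was read as paired ends, aligned with STAR to hg19 and counted on RefSeq genes with Rsubread; the strand setting is not given in the sources used here. The deposited values are CPM, read counts scaled to a common library total, although their files are named for another unit: in each library, 100% of values above 0 were whole multiples of the value of 1 read (tolerance 0.05) whatever the gene's length. Reads on genes made up 40.3% to 45.6% of the total the authors divided by, and what that total was is not given in the sources used here.

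Groups came from the labels. Values were tested as log2(CPM + 0.1) with limma 3.58.1 (trended empirical Bayes, R 4.3.3) on genes with at least 1 CPM in at least 3 of the libraries fitted, with Benjamini-Hochberg adjustment over all of them, and fold changes are on that scale, which understates the change of low genes. The fits were all 27 libraries with line and hairpin as terms, each line alone, the shCTRL libraries alone, and an F test of the interaction of line and hairpin. A call needed a fold over 1.5 and an adjusted p below 0.05. The fits were also run on simulated data with independent libraries and a fixed spread. Those data held neither libraries paired by replicate number nor libraries that stand apart, so the run does not bear on these. Gene positions are hg19 (GENCODE), promoters RefSeq on GRCh38.p14.

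The members and gene lists were chosen with earlier results of these data known. All members are accounted for. Values in every library are given for members called with both hairpins, for the member with the largest absolute change in each role group with each hairpin, and for any called with opposite signs between lines; of neighbouring lists, at most 3 genes called with both hairpins are named. Other genes named with values were chosen after their values were seen.

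Alternatives were a pseudocount of 1, no filter, quantile and median-ratio scaling, the replicate number as a block, edgeR 4.0.16 on recovered reads (1878 and 1990 genes called over the 3 lines for shSIRT3-1 and shSIRT3-2, against 1701 and 1760), and leaving out replicates or OCI-Ly1 shCTRL replicate 2. Leaving out HBL1 shSIRT3-1 replicate 3, Karpas422 shSIRT3-2 replicate 3 or HBL1 shCTRL replicate 3 was chosen after seeing the data. Libraries with the same number in a line deviated together from their group means in all 9 pairs of each line. The mean r was 0.398 in HBL1 (lowest 0.217), 0.271 in OCI-Ly1 (0.109) and 0.291 in Karpas422 (0.0144). Pairs with unlike numbers had a mean r of −0.163, −0.126 and −0.128. Deviations within a group sum to 0, so positive values for like numbers bring negative ones for unlike numbers. The 2 means are thus not separate evidence. Single pairs with unlike numbers reached 0.347 in HBL1, 0.322 in OCI-Ly1 and 0.264 in Karpas422. Whether the numbers mark paired libraries is therefore not settled. The p-values given here come from fits without pairing. With the replicate block, HBL1 calls with shSIRT3-2 went from 10 to 13. Interactions went from 11 to 14 among members and from 5471 to 7695 among all genes.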

Additional observations from a re-analysis of the deposited data

Results flagged for a closer look

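For 11 members the response to the hairpins differed between lines (limma F test of the interaction of line and hairpin, adjusted over all genes tested), a result that 41.8% of all genes shared. Among the sterol enzymes the adjusted p was 0.00233 for SC5D, 0.00249 for TM7SF2, 0.00409 for MSMO1, 0.0191 for FDFT1, 0.0221 for HMGCS1, 0.0231 for PMVK and 0.0279 for LSS. MSMO1 was 1.47 and 1.63 in HBL1 with the 2 hairpins, against 0.56 and 0.47 in Karpas422. For the efflux genes it was 0.00707 for MYLIP and 0.00748 for ABCA1, and for the fatty acid genes 0.0107 for LPIN1 and 0.0196 for ELOVL6. LPIN1 was below all controls in Karpas422 and above all controls in OCI-Ly1 with both hairpins.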

How the results depend on the processing

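Of 136 alternative counts of called members, 110 stayed within 1.5 times the reported one. In Karpas422, calls with shSIRT3-2 went from 7 to 11 without Karpas422 shSIRT3-2 replicate 3. In OCI-Ly1 the single call with each hairpin became 0 with no filter and 0 without OCI-Ly1 shCTRL replicate 2. The replicate block gave 6, 5 and 4 calls over the 3 lines (shSIRT3-1, shSIRT3-2 and between hairpins), 14 interactions, and by line 9 and 8 (Karpas422), 1 and 1 (OCI-Ly1), 12 and 13 (HBL1), moving no count by over 1.5 times. Leaving out 1 replicate number from every group leaves 2 libraries a group: over the 3 lines calls ranged from 4 to 11 with shSIRT3-1, 0 to 9 with shSIRT3-2 and 2 to 3 between hairpins, and interactions from 0 to 15. By line they ranged from 3 to 15 and 1 to 15 (Karpas422), 0 to 1 with each hairpin (OCI-Ly1), and 3 to 15 and 1 to 16 (HBL1). Calls over all genes moved widely in these fits too. They ranged from 761 to 1775 and 579 to 1862 (Karpas422, 1793 and 1684 with all libraries) and 0 to 92 and 0 to 338 (OCI-Ly1, 504 and 718). In HBL1 they ranged from 506 to 3331 and 334 to 3176 (3280 and 2786), and interactions from 348 to 4709 (5471). Moves in member counts are thus not particular to these genes. Causes were not tested.

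Of 816 alternative values of single members over the 3 lines, 747 kept direction and side of the threshold, 13 lost a call, 23 gained one and 33 changed sign, all of the last with a reported size of at most 0.2022. With shSIRT3-1 these were LPIN1 with quantile normalization (0.0046) and, without OCI-Ly1 shCTRL replicate 2, PMVK (−0.0391), HSD17B7 (−0.0036) and INSIG1 (−0.0111, and −0.0084 without HBL1 shCTRL replicate 3). With shSIRT3-2 they were TM7SF2 (0.0089 with a pseudocount of 1, 0.03 quantile, 0.0223 median-ratio, 0.022 edgeR, 0.0737 without HBL1 shCTRL replicate 3), FDPS (−0.0139 quantile, −0.0106 without OCI-Ly1 shCTRL replicate 2, −0.0571 without HBL1 shCTRL replicate 3), INSIG2 (0.0135 quantile, 0.0383 edgeR, 0.0128 without Karpas422 shSIRT3-2 replicate 3) and SCD (0.0728 without that library).

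Leaving out replicate numbers, sign changes with shSIRT3-1 were in INSIG1 (−0.1669 to 0.2457), ACAT2 (−0.1226 to 0.4366), FDPS (−0.0733 to 0.206), CYP51A1 (−0.0209 to 0.284), HSD17B7 (−0.0294 to 0.154), EBP (−0.0269 to 0.347), STARD4 (−0.0378 to 0.2542), ACLY (−0.0314 to 0.3489), PMVK (−0.0766 to 0.0405). Leaving out replicate numbers, sign changes with shSIRT3-2 were in TM7SF2 (−0.144 to 0.0825), FDPS (−0.1684 to 0.1225), INSIG2 (−0.2044 to 0.1515), IDI1 (−0.3626 to 0.0286), SCD (−0.2027 to 0.1402). ABCG1 and ACSS2 in Karpas422 and ABCA1 in HBL1 lie too low for a fold in those lines.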

Other observations

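Within several knockdown groups, 1 library had at once the lowest SREBF1, SCD and FASN and the highest ABCA1 and MYLIP, a pattern noticed after the values were seen and given as a description. It was replicate 3 in Karpas422 shSIRT3-1, Karpas422 shSIRT3-2, HBL1 shSIRT3-1 and HBL1 shSIRT3-2, and replicate 2 in OCI-Ly1 shSIRT3-1. SREBF1 was 56.0, 29.4, 28.5, 50.5 and 58.6 CPM in these 5 libraries. OCI-Ly1 shSIRT3-2 did not have it in full, since replicate 2 had the lowest SREBF1, SCD and FASN and the highest ABCA1, but replicate 3 the highest MYLIP. No shCTRL group had it, and in OCI-Ly1 shCTRL replicate 2, where the sterol enzymes were low, SREBF1 was the highest of its group (141 CPM). In HBL1 shSIRT3-1 replicate 3 the median log2 ratio to control was 0.11 for the sterol enzymes, −0.67 for the fatty acid genes and 1.10 for the efflux genes, where replicate 1 gave 0.87, 0.01 and 1.02. In Karpas422 shSIRT3-2 replicate 3 the medians were −0.23, 0.24 and 1.54, where replicate 1 gave 0.54, 0.59 and 0.74. What sets these libraries apart was not tested.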
